A study of Mus musculus with 2 samples.

Results

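Antioxidant and glutathione enzyme genes were described in cultured primary mouse brain pericytes (PCs), the cells that wrap the capillaries of the brain. The genes were chosen by symbol: the glutathione S-transferases (*Gst*), glutathione peroxidases (*Gpx*), peroxiredoxins (*Prdx*), superoxide dismutases (*Sod*) and thioredoxin reductases (*Txnrd*), with *Txn1*, *Cat*, *Gclc*, *Gclm*, *Gss*, *Gsr*, *Nqo1*, *Srxn1*, *Hmox1*, *Nfe2l2* and *Keap1*. These were 55 of the 31053 genes listed in the files.

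Single-cell RNA sequencing covered PCs at passage 5 (PC5) and at passage 20 (PC20), with 1 library of each. The labels start the protocol from the pooled brains of 6 female wild-type C57BL/6N mice aged 6 to 8 weeks, for PC5 and PC20 alike, and name no transgene or treatment. Cells were grown on collagen-coated plates in endothelial cell growth medium and then in pericyte medium. The deposited labels describe a single isolation, whereas the methods of the paper give PC5 and PC20 different sets of isolated PCs. With different sets, passage cannot be told apart from isolation.

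Cells detoxify oxidants along a few connected routes. Glutathione is built from cysteine by the glutamate-cysteine ligase (*Gclc*, *Gclm*) and glutathione synthetase (*Gss*), is spent by peroxidases and transferases, and is restored by glutathione reductase (*Gsr*) with NADPH. Thioredoxin and its reductases keep peroxiredoxins working in the same way. Many of these genes are switched on by the transcription factor NRF2 (*Nfe2l2*), which KEAP1 (*Keap1*) holds back until oxidants or electrophiles modify it.

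The cells described are those in which more than 1000 genes were seen and mitochondrial genes took under 20% of UMIs, 9950 in PC5 and 4749 in PC20. A unique molecular identifier (UMI) tags 1 captured RNA molecule, and with a 3′ kit it is not scaled by gene length. These cells summed to 223054273 UMIs (PC5) and 191122251 UMIs (PC20), and a median cell held 21700 and 33424 UMIs. Levels are given as CPM, the UMIs of a gene summed over the kept cells of a library scaled to a total of 1e6. The log2 ratio sets the CPM of PC5 over that of PC20, so a negative value means a higher level in PC20. Intervals are at the 95% level and hold for counting error alone. There was no replicate check, since each passage is a single library, and no test was made. The libraries shared 20 cell barcodes.

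Markers of the labelled cell type were low. The 5 pericyte markers (*Pdgfrb*, *Cspg4*, *Anpep*, *Rgs5*, *Abcc9*) summed to 53.9 CPM in PC5 and 8.53 CPM in PC20, with *Rgs5* at 0 UMIs in PC20 and *Abcc9* at 1 UMI in each library. Of these sums *Pdgfrb* made 44.6 and 5.43 CPM, while *Anpep* was higher in PC20, at 1.93 and 3.00 CPM. Markers of other cell types also moved between the libraries. The 4 fibroblast markers summed to 1302 and 101 CPM, mostly *Col3a1*, with *Lum* at 0 UMIs in PC20. The 3 endothelial markers summed to 169 and 0.178 CPM, of which *Cdh5* alone made 168 in PC5, while *Pecam1* and *Cldn5* were at 0.542 and 0.0628 CPM there. Of the 4 astrocyte markers (151 and 229 CPM), *Slc4a4* made 143 and 229 CPM, whereas *Aldh1l1* (7.35 and 0.0262 CPM), *Gfap* (97 and 0 UMIs) and *Aqp4* (28 UMIs and 1) were lower in PC20. The 3 smooth muscle markers summed to 283 and 49.5 CPM, of which *Tagln* made 219 and 0.230 CPM and *Acta2* 62.8 and 49.2 CPM. The 4 epithelial markers, mostly keratins, summed to 46.7 and 1132 CPM. *Krt18* made 0.134 and 913 CPM of these, *Krt8* 0.0269 and 98.4, *Krt19* 46.5 and 120, and *Epcam* 0.0493 and 0.267. *Krt18* had a UMI in 0.261% of the PC5 cells and in 99.6% of the PC20 cells. Markers of microglia, oligodendrocytes, neurons, erythroid cells and lymphocytes each summed to less than 1 CPM in each library. The 3 hepatocyte markers summed to 8.29 and 1.10 CPM, of which *Apoa2* made 8.13 and 1.10 CPM. The part of these differences in the results was not tested.

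In all, the 55 genes took 0.426% of the kept UMIs of PC5 (951238) and 0.884% of those of PC20 (1688957). Their summed level was 4265 CPM in PC5 against 8837 in PC20 (log2 ratio -1.05). A total of 37 genes had a mean of at least 5 CPM over the libraries and were counted. Of these, 30 reached 5 CPM in both libraries, 4 in PC5 alone and 3 in PC20 alone. That split was not made over all genes, so it is not read as a result about the set. Of the other 18, *Gpx5* and *Gpx6* had no UMI in either library, and 16 had at least 1 UMI. *Gstm4*, at a mean of 5.31 CPM, lay just inside the minimum and *Gstt3*, at 4.63 CPM, just outside.

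Most counted genes were higher in PC20. The level was higher in PC20 for 28 of the 37 and higher in PC5 for 9. The log2 ratio was below -1 for 15 genes (40.5%), against 17.3% of the 9387 genes of the whole series counted by the same minimum. It was above 1 for 4 genes (10.8%: *Gpx7*, *Gstk1*, *Gstm4* and *Gpx1*), against 17.9% of those genes. This last count was 2 with a pseudocount of 10 CPM and 1 with a minimum mean of 50 CPM. The median log2 ratio was -0.83 over the 37 genes and 0.01 over the 9387. The net difference in summed level lay mostly in a few genes: *Gclm* made up 20.0% of the net difference of 4572 CPM, *Txn1* 19.2%, *Hmox1* 11.7%, *Txnrd1* 9.49% and *Gpx4* 8.18%. *Gpx1* and *Prdx2* ran the other way, at -6.55% and -4.12% of the net difference.

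**Figure D1:**
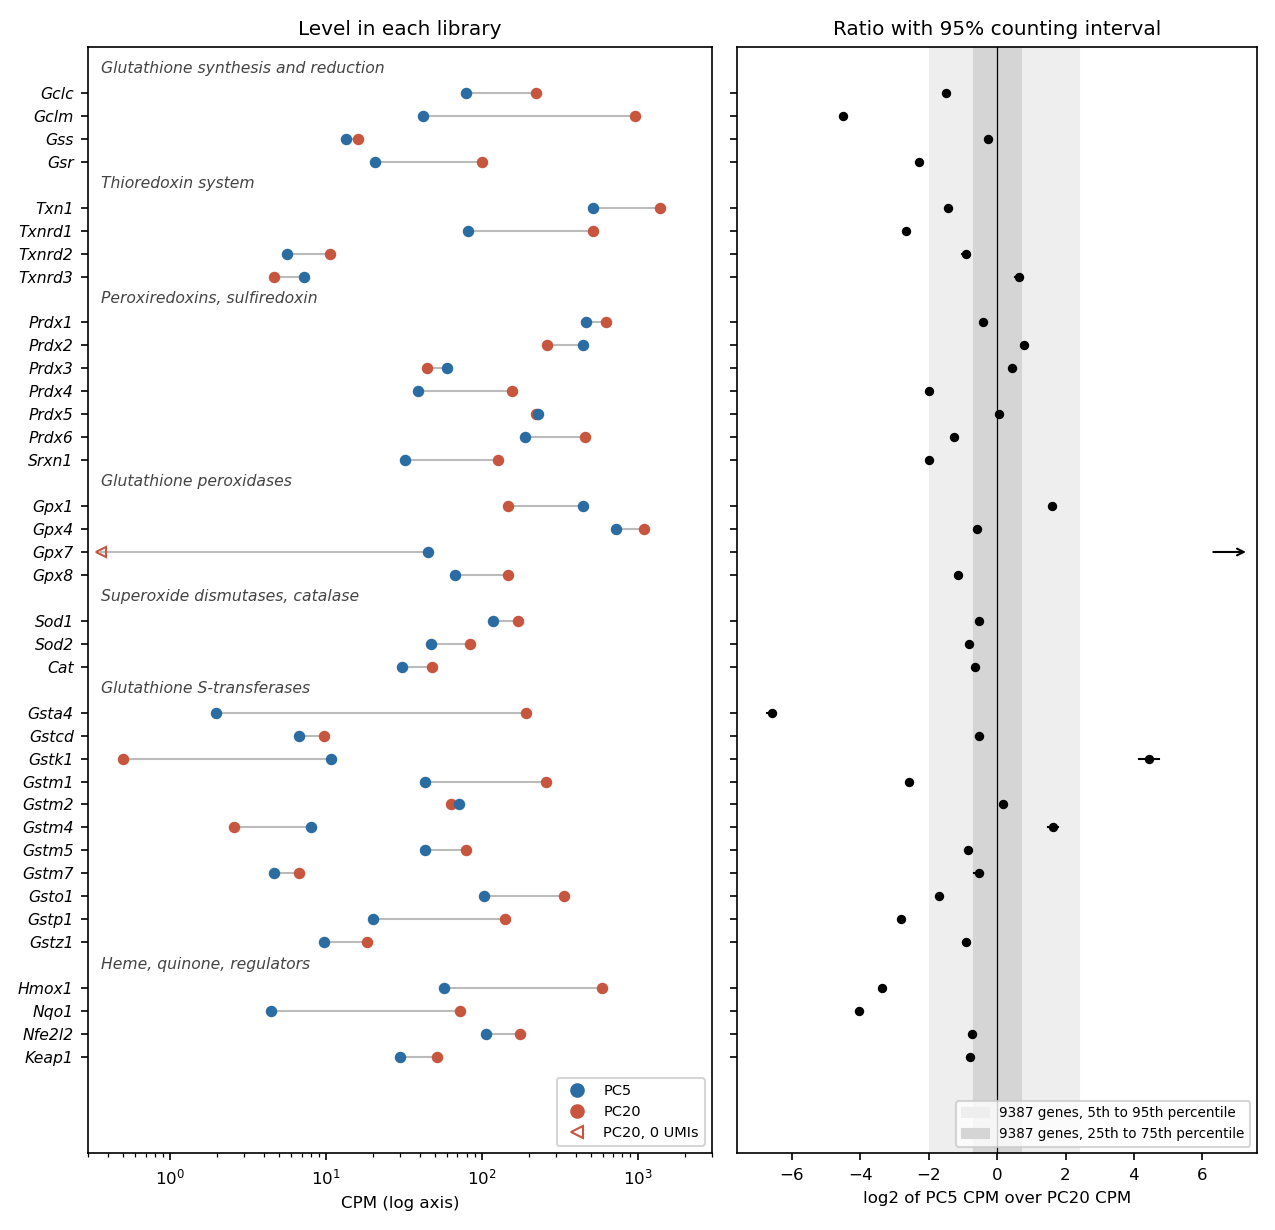
Levels of the 37 counted genes, grouped by role. Left, CPM in PC5 (blue) and PC20 (red) on a log axis, with an open triangle at the left edge for *Gpx7*, which had 0 UMIs in PC20. Right, log2 ratio of PC5 over PC20 with its 95% counting interval, over grey bands that hold the middle of the 9387 genes counted (5th to 95th percentile, -1.98 to 2.38, and 25th to 75th, -0.69 to 0.70). *Gclm*, *Gsta4*, *Nqo1*, *Hmox1*, *Gstp1*, *Txnrd1*, *Gstm1*, *Gsr*, *Prdx4* and, just past its edge, *Srxn1* lie to the left of the wider band, and *Gstk1* and *Gpx7* to its right.

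The difference was also seen cell by cell. Each cell was thinned at random to the same number of UMIs, near the 10th percentile of depth, which 8847 PC5 cells and 4474 PC20 cells reached. After that, a PC5 cell held a median of 43 UMIs of the 55 genes (5th to 95th percentile 30 to 62). A PC20 cell held a median of 92 (62 to 130). Only 0.124% of the PC5 cells reached the PC20 median, and 0.179% of the PC20 cells were at or under the PC5 median. The ranges of single cells overlapped, from 17 to 180 UMIs in PC5 and from 36 to 242 in PC20. Cells of a library are not replicates of a passage.

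**Figure D2:**
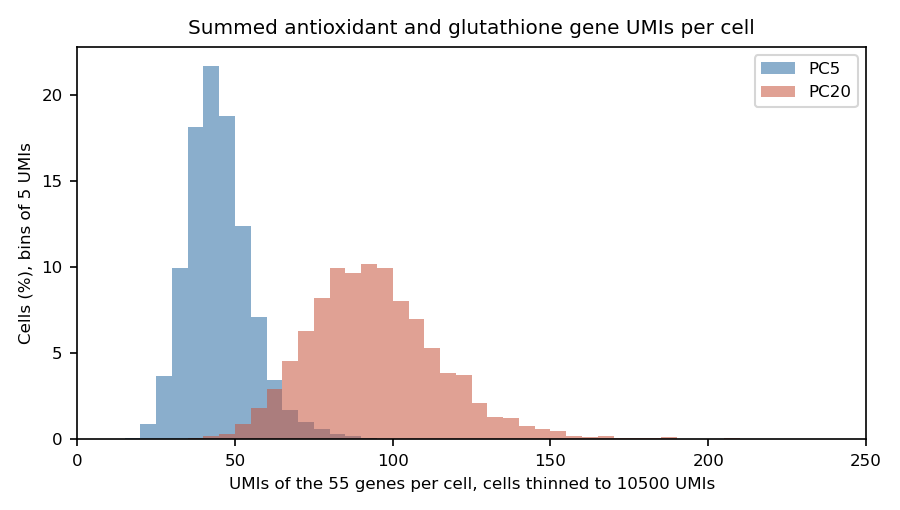
Summed UMIs of the 55 genes per cell (x axis, bins of 5 UMIs) against the share of cells in percent (y axis), for 8847 PC5 cells (blue) and 4474 PC20 cells (red) thinned to equal depth. The medians are 43 and 92 UMIs, and the 95th percentile of PC5 and the 5th percentile of PC20 both lie at 62.

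Glutathione synthesis differed most in its ligase and little in its synthetase. *Gclm* (ENSMUSG00000028124, chr3:122245557-122270732), the modifier subunit of glutamate-cysteine ligase, which makes the catalytic subunit more efficient, had 42.2 CPM in PC5 (interval 41.3 to 43.0) against 959 CPM in PC20 (954 to 963). This is 22.7-fold higher in PC20, a log2 ratio of -4.51 (-4.54 to -4.48). *Gclc* (chr9:77754535-77794485), the catalytic subunit, stood at 79.4 CPM in PC5 but at 222 in PC20 (log2 ratio -1.49). The subunits therefore changed order: there were 0.531 *Gclm* UMIs per *Gclc* UMI in PC5 (0.518 to 0.545) and 4.31 in PC20 (4.26 to 4.35). *Gss*, which adds glycine in the last step, reached 13.5 CPM in PC5 and, in PC20, 16.1 (log2 ratio -0.25, -0.33 to -0.18). *Gsr*, which reduces oxidised glutathione, was at 20.7 and 101 CPM, 4.90-fold higher in PC20.

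The difference in *Gclm* reached most cells. A thinned PC5 cell held a median of 0 *Gclm* UMIs and at most 14, and 66.2% of these cells had none. A thinned PC20 cell held a median of 9 (5th to 95th percentile 2 to 21), and 1.25% had none. *Gclc* overlapped more, with medians of 0 UMIs in PC5 and 2 in PC20. For it, 18.9% of the PC5 cells reached the PC20 median, and 20.5% of the PC20 cells had none.

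In the thioredoxin system the log2 ratio was below -1 for the cytosolic members and not for the other reductases. *Txn1*, the cytosolic thioredoxin and the most abundant gene of the set in PC20, had 519 CPM in PC5 against 1398 in PC20 (log2 ratio -1.43). *Txnrd1*, its selenium-containing reductase, had 81.2 CPM in PC5 (interval 80.0 to 82.4) against 515 CPM in PC20 (512 to 518), 6.35-fold higher in PC20. *Txn1* UMIs per *Txnrd1* UMI went from 6.39 in PC5 to 2.71 in PC20. The mitochondrial reductase *Txnrd2* was low in both libraries and higher in PC20, at 5.63 and 10.6 CPM (log2 ratio -0.91, -1.01 to -0.81). *Txnrd3*, a thioredoxin and glutathione reductase best known from testis, was the reductase with the higher level in PC5, at 7.29 CPM against 4.65 CPM, a log2 ratio of 0.65 (0.53 to 0.77).

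The peroxiredoxins, which reduce peroxides with a reactive cysteine, differed little in sum but more in make-up. Summed, they had 1437 CPM in PC5 against 1769.6 in PC20. *Prdx4*, the form of the endoplasmic reticulum (ER), was 4.01-fold higher in PC20, where it had 156 CPM against 38.8. *Prdx6*, the form that uses glutathione in place of thioredoxin, stood at 190.1 CPM in PC5 but at 458 in PC20 (log2 ratio -1.27). The mitochondrial *Prdx3* (59.7 and 44.3 CPM) and the cytosolic *Prdx2* (450 and 261 CPM) were higher in PC5, with log2 ratios of 0.43 and 0.78. *Prdx1*, also cytosolic, was at 468 and 628 CPM, and *Prdx5*, found in several compartments, at 231 and 223 CPM.

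Within the family, *Prdx2* went from a share of 31.3% in PC5 to 14.8% in PC20, while *Prdx6* went from 13.2% to 25.9% and *Prdx4* from 2.70% to 8.80%. These shares do not depend on the library total. *Srxn1*, sulfiredoxin, which repairs peroxiredoxins whose cysteine has been overoxidised, reached 32.2 CPM in PC5 and, in PC20, 127 (log2 ratio -1.98, -2.02 to -1.95). *Prdx6b*, the remaining family member, had 1 UMI in PC5 and 2 in PC20.

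The glutathione peroxidases were nearly equal in sum and unlike in make-up. They summed to 1291 CPM in PC5 against 1401 in PC20 (log2 ratio -0.12). *Gpx1*, the cytosolic peroxidase for hydrogen peroxide, had 446 CPM in PC5 (interval 444 to 449) against 147 CPM in PC20 (146 to 149), 3.03-fold higher in PC5. *Gpx4*, which reduces lipid peroxides in membranes and guards against ferroptosis, was at 729 and 1103 CPM (log2 ratio -0.60). *Gpx4* UMIs per *Gpx1* UMI went from 1.63 in PC5 to 7.49 in PC20. Of the 60-base words in the last 400 bases of *Gpx4* transcripts, 84.5% also occur in another gene, mostly the pseudogene *Gpx4-ps2*, so its reads may be split or lost.

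*Gpx7* and *Gpx8*, peroxidases of the ER that act on its protein-folding oxidants, differed in opposite directions. *Gpx7* (ENSMUSG00000028597, chr4:108400390-108406961) had 10050 UMIs in PC5, a level of 45.1 CPM (44.2 to 45.9), and a UMI in 58.0% of the PC5 cells (36.8% after thinning). In PC20 it had 0 UMIs in 4749 cells, which allows up to 0.0632% of cells with a UMI (not a limit on cells expressing it) and a level of up to 0.0157 CPM. Set against that limit of 3 UMIs, it was 2870-fold higher in PC5. The exact Poisson interval of its PC20 level ends higher than that limit, at 0.0193 CPM. *Gpx8* had 67.2 CPM in PC5 against 147 in PC20 (log2 ratio -1.13).

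The genes beside *Gpx7* were looked up after its values were seen. *Fam159a*, 17.0 kb away, was also mostly seen in PC5, with 127 UMIs against 4. The next genes on either side, *Coa7* and *Zcchc11*, had log2 ratios of -1.15 and 0.08. The extracellular *Gpx3* was low in both libraries, at 3.34 and 3.77 CPM, and the gut form *Gpx2* had 4 UMIs in each.

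**Figure D3:**
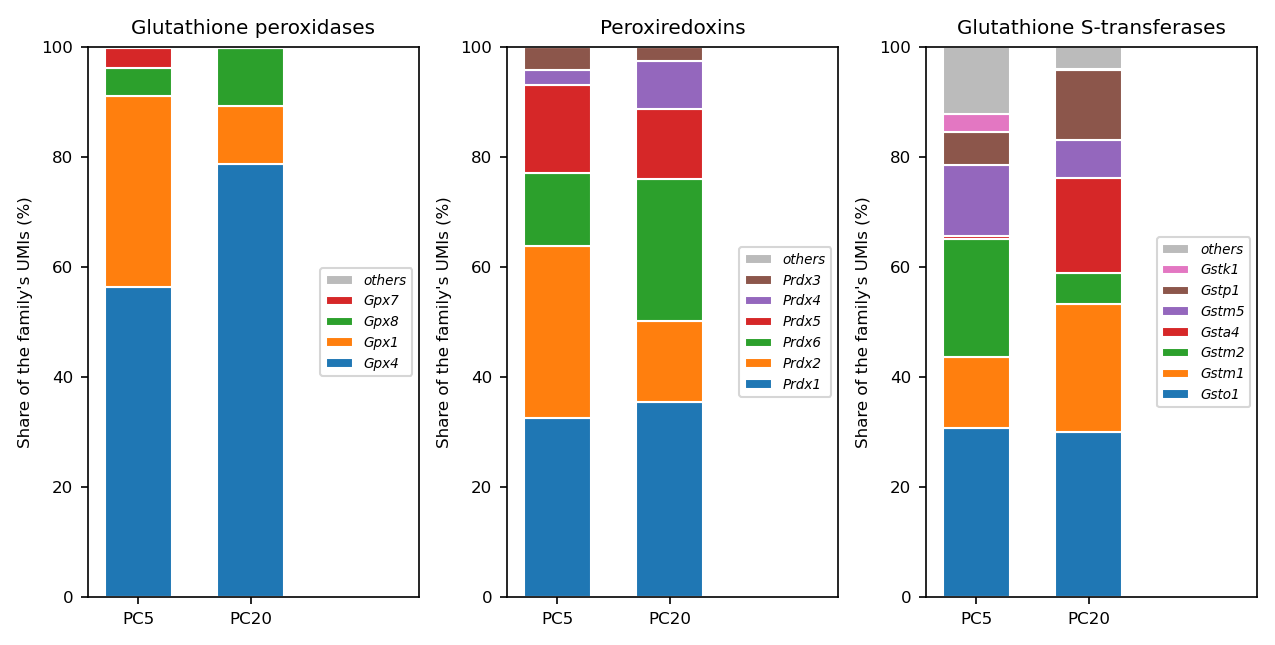
Share of each family's UMIs (y axis, percent) held by its members in PC5 and PC20, for glutathione peroxidases (left), peroxiredoxins (middle) and glutathione S-transferases (right). Members with under 3% in both libraries are grouped as others. The share of *Gpx1* goes from 34.6% to 10.5%, that of *Prdx2* from 31.3% to 14.8%, and *Gsta4* from 0.593% to 17.2%.

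Superoxide dismutases turn superoxide into hydrogen peroxide, and catalase breaks the peroxide down. *Sod1*, the cytosolic enzyme, had 119 CPM in PC5 against 170.5 in PC20, and the mitochondrial *Sod2* was at 47.0 and 83.9 CPM, with log2 ratios of -0.52 and -0.83. *Cat* was at 30.8 and 47.9 CPM (log2 ratio -0.64). Each was thus higher in PC20, by less than the fold of 1 on the log2 scale. The secreted *Sod3* (chr5:52363791-52371418), which binds to the extracellular matrix, was the exception. Its 1188 UMIs in PC5 make 5.33 CPM, and its 39 in PC20 make 0.204 CPM, for a log2 ratio of 4.71 (4.25 to 5.21), or 0.59 with a pseudocount of 10 CPM. A UMI was seen in 5.37% and 0.134% of thinned cells. Its mean level lay under 5 CPM, so it is not among the 37.

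Glutathione S-transferases couple glutathione to electrophiles. As a family of 23 genes, 11 of them counted, they summed to 335 CPM in PC5 against 1116 in PC20 (log2 ratio -1.73). *Gsta4* (ENSMUSG00000032348, chr9:78182774-78209349), which clears 4-hydroxynonenal made by lipid peroxidation, had 1.99 CPM in PC5 (interval 1.81 to 2.18) against 192 CPM in PC20 (189.7 to 194). This is 96.3-fold higher in PC20, and the log2 ratio of -6.59 became -4.07 with a pseudocount of 10 CPM. It had a UMI in 2.11% of thinned PC5 cells and in 68.4% of thinned PC20 cells. For comparison, 11 genes of other lineages reached at most 0.147% of thinned PC5 cells and 0.0447% of thinned PC20 cells. That list was taken without *Apoa2*, which was left out after its shares of 8.33% and 1.27% were seen.

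The pi, omega and mu classes also had members with a higher level in PC20. *Gstp1*, the main pi-class enzyme, was at 20.1 and 142 CPM (log2 ratio -2.82). Of its 60-base words at the 3′ end, 75.9% occur in another gene, mostly *Gstp2*, so the pair cannot be fully told apart. *Gsto1*, an omega-class enzyme that reduces dehydroascorbate, was at 103 and 336 CPM (log2 ratio -1.70), and held near 30% of the family in each library (30.8% and 30.1%).

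The 7 mu-class genes lie side by side at chr3:107895821-108044894 and did not move together. *Gstm1* was 5.99-fold higher in PC20, where it had 258 CPM against 43.0. Its neighbour *Gstm2* was at 71.7 and 63.7 CPM (log2 ratio 0.17, 0.14 to 0.21). *Gstm4*, at the other side of *Gstm1*, was at 8.04 and 2.58 CPM (log2 ratio 1.64, 1.49 to 1.78, or 0.52 with the pseudocount). *Gstm5* and *Gstm7* had log2 ratios of -0.86 and -0.54, and *Gstm3* and *Gstm6* were not counted. *Gstm1* UMIs per *Gstm2* UMI went from 0.600 in PC5 to 4.05 in PC20. *Gstm1* shares 22.0% of its 60-base words with other genes.

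Some transferases were seen mainly in PC5. *Gstk1* (chr6:42245935-42250447), a kappa-class enzyme of mitochondria and peroxisomes, went from 10.9 CPM (2422 UMIs) in PC5 to 0.502 CPM (96 UMIs) in PC20, for a log2 ratio of 4.43 (4.14 to 4.74), or 0.99 with the pseudocount. It had a UMI in 10.8% and 0.402% of thinned cells. In the theta class at chr10:75774115-75837424, *Gstt3* (7.76 and 1.5 CPM) and *Gstt2* (373 and 47 UMIs) were also higher in PC5, below the minimum. *Gstcd* and *Gstz1* had log2 ratios of -0.52 and -0.91.

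The remaining enzymes are the ones most used as readouts of NRF2. *Hmox1* (chr8:75093621-75100589), heme oxygenase, which breaks heme down to iron, biliverdin and carbon monoxide, had 57.0 CPM in PC5 (interval 56.0 to 58.0) against 592 CPM in PC20 (589 to 596), 10.4-fold higher in PC20. *Nqo1* (chr8:107388225-107403206), a quinone reductase, stood at 4.48 CPM in PC5 but at 73.0 in PC20 (log2 ratio -4.03, -4.12 to -3.93). With that pseudocount it was -2.52. *Nqo1* had a UMI in 4.18% of thinned PC5 cells and 50.04% of thinned PC20 cells. Both genes were thus lower in PC5 than in PC20, and the activity of NRF2 was not tested.

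The genes of the sensor itself lay near the median of the set and differed far less than *Hmox1*, *Nqo1* or *Gclm*. *Nfe2l2* (chr2:75675513-75704641) had 106 CPM in PC5 against 176 in PC20, and *Keap1* (chr9:21229730-21239361) was at 30.1 and 51.9 CPM, with log2 ratios of -0.73 and -0.79. Their ratio was 3.54 *Nfe2l2* UMIs per *Keap1* UMI in PC5 (3.44 to 3.63) and 3.4 in PC20 (3.32 to 3.48). NRF2 is known to be controlled mainly by protein breakdown, which RNA counts do not measure.

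NRF2 with a small MAF protein binds the antioxidant response element, written here as TGACNNNGC. These letters were searched on either strand in promoter windows from RefSeq (GRCm38.p6) that run from 250 bases before to 50 bases after a gene's start. The 4 windows below are shown because they hold the letters, in capitals, and belong to genes that differed far (*Gclm*, *Txnrd1*), little (*Prdx1*), or encode NRF2 itself. All are written 5′ to 3′ on the gene's own strand.

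*Gclm*, plus strand, chr3:122245407-122245447: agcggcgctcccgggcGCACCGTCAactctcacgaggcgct

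*Txnrd1*, plus strand, chr10:82859098-82859138: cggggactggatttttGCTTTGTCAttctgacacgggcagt

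*Prdx1*, plus strand, chr4:116685450-116685490: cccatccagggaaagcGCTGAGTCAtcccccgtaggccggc

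*Nfe2l2*, minus strand, chr2:75704879-75704913: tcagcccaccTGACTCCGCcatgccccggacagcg

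In *Gclm*, *Txnrd1* and *Prdx1* the letters lie on the opposite strand, 126, 84 and 125 bases before the start, and in *Nfe2l2* on the same strand, 232 bases before it. The RefSeq start used for *Txnrd1* lies inside the span of the gene's annotated transcripts. The *Prdx1* match overlaps TGACTCA, the letters of an AP-1 element. A window was given for 47 of the 55 genes, and 9 (19.1%) held the letters, against 14.0% of 27025 genes. Of the 15 counted genes with a log2 ratio below -1, only 10 had a window, and the rest were not searched. The letters were in 3 of these 10 (*Gclm*, *Txnrd1* and, 28 bases after its start, *Srxn1*). Of the other counted genes, 22 had a window, and 5 of them held the letters. A match describes letters only, and none in this window says nothing of elements elsewhere.

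Within a library, levels varied among cells more for some genes than for others. The Fano factor, the variance over the mean of thinned UMIs, was set beside its median over genes within 20% of the same mean, for genes of at least 50 CPM. In PC5 the largest excess was that of *Hmox1*, at 2.31 or 2.11 times the like genes, and the 5% of cells with the most *Hmox1* held 31.2% of its UMIs. A single PC5 cell reached 56 *Hmox1* UMIs while the median was 0. *Gclc* (1.72 times), *Prdx5* (1.47), *Prdx1* (1.28) and *Prdx2* (1.24) followed. Single PC5 cells reached 39 *Gclc* UMIs and 86 *Prdx1* UMIs, and how far such cells make this order was not tested.

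The minimum was passed by 26 genes in PC20 and 16 in PC5, and *Gsta4*, *Gstm1*, *Gclm* and *Srxn1* were among those read in PC20 alone. In PC20 *Hmox1* again led, with a Fano factor of 4.99, or 2.93 times the like genes. *Gsta4* (2.67 times), *Txnrd1* (2.02), *Gstm1* (1.91) and *Prdx6* (1.69) came next, with *Gclm* at 1.67. Of the genes that led in PC5, *Gclc* was at 1.59 times its like in PC20, *Prdx5* at 1.13, *Prdx1* at 0.958 and *Prdx2* at 0.926. *Gpx4* lay under the median of its like in both libraries, at 0.900 and 0.828 times. Still, 36.2% of its 47 like genes in PC5 and 36.7% of 30 in PC20 had a lower Fano factor. So among these genes *Hmox1* had, in each library, the highest Fano factor relative to the median of its like. By rank, *Gsta4* stood higher in PC20: 97.9% of its like genes had a lower Fano factor, against 96.6% for *Hmox1*.

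**Figure D4:**
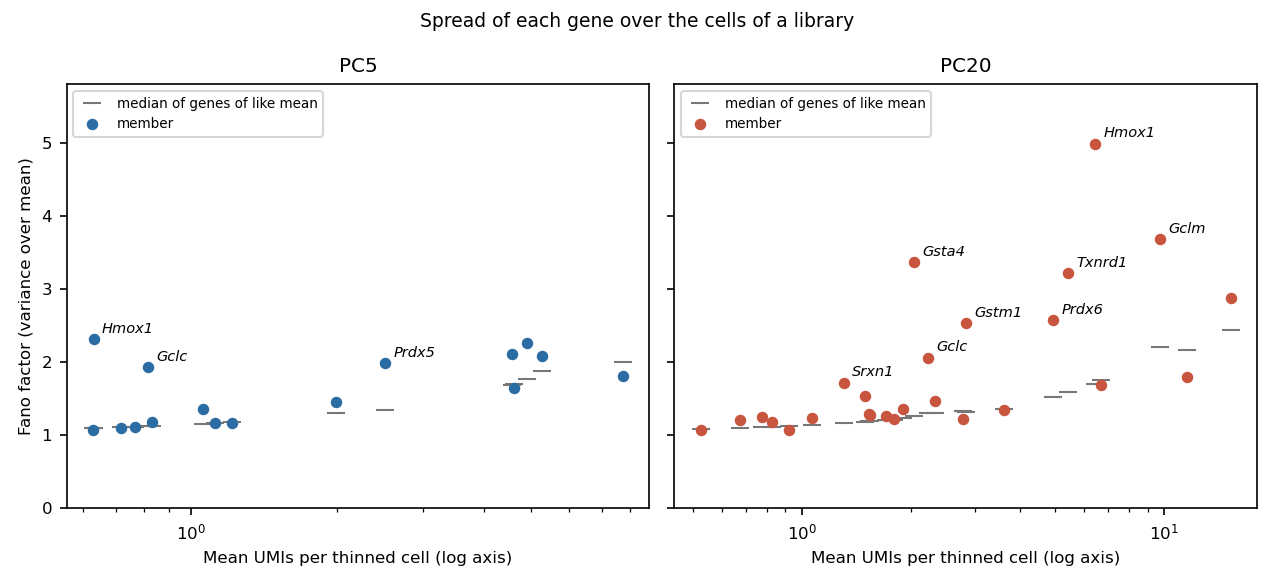
Fano factor (y axis, variance over mean of thinned UMIs) against mean UMIs per thinned cell (x axis, log scale) for the genes of at least 50 CPM in PC5 (left) and PC20 (right). Grey dashes mark the median of genes within 20% of the same mean. *Hmox1* stands farthest above its dash in each library (2.31 in PC5 and 4.99 in PC20), and *Gsta4*, *Txnrd1*, *Gstm1* and *Gclm* stand above theirs in PC20.

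Pearson's *r* was computed over thinned cells, which share a library and a fixed depth, as a description. Among 120 pairs of 16 genes in PC5 the median was 0.009, and the highest values were *Prdx1* with *Txn1* at 0.226, *Prdx2* with *Txn1* at 0.204, *Gpx4* with *Prdx5* at 0.179, *Prdx1* with *Prdx5* at 0.151 and *Prdx2* with *Prdx5* at 0.144. In PC20 these pairs were at 0.239, 0.093, 0.168, 0.065 and 0.081, so 4 of the 5 were lower there. Because they were picked as the highest in PC5, lower values in the other library are not read as a difference. Among 325 pairs of 26 genes in PC20 the median was 0.020 and 18 pairs passed 0.2. Pairs of other genes were not computed, so this count is not read as a result about the set. The highest were *Gclm* with *Txnrd1* at 0.414, with *Srxn1* at 0.375, with *Gsta4* at 0.373 and with *Hmox1* at 0.343, and then *Gsta4* with *Hmox1* at 0.306. The same 5 pairs, picked as the highest in PC20, lay between 0.047 and 0.091 in the 8847 PC5 cells. There these genes had lower counts and most were under the minimum. In PC20 cells without a *Mki67* or *Top2a* UMI, a choice made after the values were seen, they were 0.476, 0.378, 0.395, 0.424 and 0.306.

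The libraries differed in cycling cells, so the genes were also compared within each library. A UMI of *Mki67* or *Top2a*, which mark dividing cells, was seen in 3114 of 8847 thinned PC5 cells (35.2%) and in 2571 of 4474 thinned PC20 cells (57.5%). Between cells with and without one, the median log2 ratio of the genes was -0.02 in PC5 and -0.08 in PC20. Above 0.5 lay 1 of 36 genes in PC5 (6.92% of all genes at 5 CPM or more) and 1 of 34 in PC20 (7.22%). It was *Gstcd* in each, a gene whose product is little studied, at 9.57 CPM in PC5 cells with such a UMI and 4.62 CPM in those without, and at 12.1 and 6.36 CPM in PC20.

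Below -0.5 lay 2 of 36 genes in PC5 (2.36% of all genes) and 2 of 34 in PC20 (2.74%). In PC5 these were *Sod3* at -0.93 and *Hmox1* at -0.55, and in PC20 *Gstm7* at -0.71 and *Gstm2* at -0.53. *Gsr* was somewhat higher in cells with such a UMI, at 0.41 and 0.44, and *Gclm* differed by 0.27 and 0.24.

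**Figure D5:**
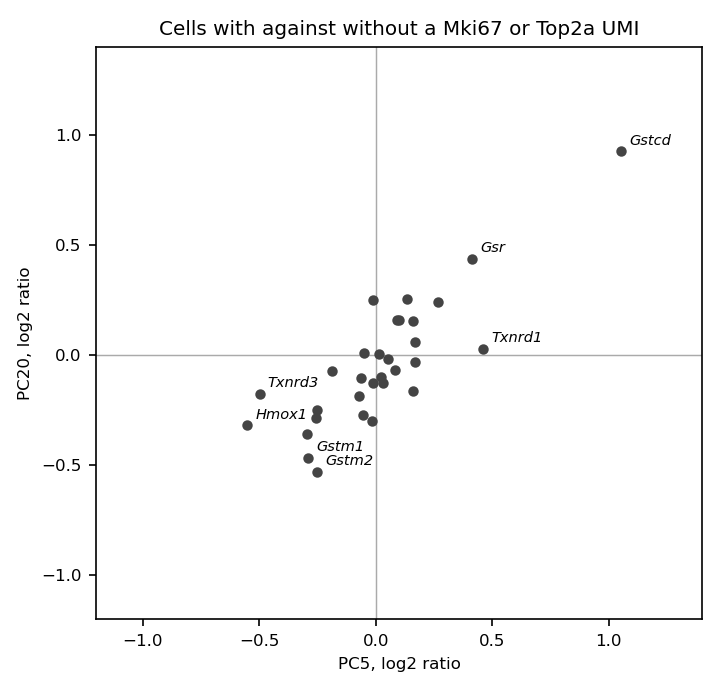
Log2 ratio of CPM in cells with against cells without a *Mki67* or *Top2a* UMI, in PC5 (x axis) and PC20 (y axis), for each gene at 5 CPM or more in both. Grey lines mark 0. *Gstcd* stands at 1.05 and 0.93, *Gsr* at 0.41 and 0.44, *Hmox1* and *Gstm2* lie below 0 in each, and *Txnrd1* is at 0.46 in PC5 and 0.03 in PC20.

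Other genes of the pathway were taken from lists by function. These lists were chosen with earlier results of these data known, so their counts beside all counted genes are descriptions, not tests. Of a list on cystine and glutathione supply and breakdown, 11 of 17 genes were counted. All 11 were higher in PC20, 5 of them with a log2 ratio below -1 (17.3% of all counted genes). The median was -0.94, against 0.01 over all counted genes. Not all of the 11 supply cystine or build or break down glutathione. Among them are the glyoxalases *Glo1* and *Hagh*, the exporter *Abcc1* and the mitochondrial carrier *Slc25a39*. *Hagh* (-1.60) and *Abcc1* (-1.92) are 2 of the 5 below -1. *Cth*, which makes cysteine from cystathionine, had 1.55 CPM in PC5 against 61.8 in PC20. *Chac1*, which breaks glutathione down, was at 1.43 and 55.7 CPM. *Slc3a2*, the heavy chain of the cystine transporter, was at 34.3 and 339 CPM, and its light chain *Slc7a11* at 86.0 and 124 CPM. So among the counted genes, genes of supply and a gene of breakdown were both higher in PC20. Under the minimum, *Ggt7* (6.89 and 1.66 CPM), *Ggt5* (453 and 0 UMIs) and *Cbs* (125 and 60 UMIs) were higher in PC5. *Ggt1*, *Oplah* and *Dpep1*, also under it, were higher in PC20.

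Of a list on NADPH supply, 13 of 14 genes were counted, 2 with a log2 ratio above 1 and 6 below -1. The shares of all counted genes were 17.9% and 17.3%, and the median of the list was -0.92. The 6 include *Taldo1* (-2.49) and *Tkt*, of the non-oxidative pentose phosphate branch, which makes no NADPH itself. Of the 2 above 1, *Nadk* lay at 1.01 (0.97 to 1.05). *Taldo1*, of the pentose phosphate pathway, had 79.7 CPM in PC5 against 447 in PC20, and the mitochondrial folate enzyme *Mthfd2* was at 42.3 and 229 CPM. *Idh1*, the cytosolic isocitrate dehydrogenase, went the other way at 256 and 39.4 CPM, a log2 ratio of 2.70. The pentose phosphate pathway did not move as one: the log2 ratio was -2.42 for *Tkt*, -0.75 for *G6pdx*, -0.18 for *Pgls* and 0.08 for *Pgd*.

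Of other NRF2 target genes, 12 of 14 were counted, 0 above 1 and 8 below -1 (against 17.9% and 17.3% of all counted genes), with a median of -1.94. *Osgin1*, an oxidative stress growth inhibitor, was at 1.23 and 26.9 CPM, the exporter *Abcc4* at 1.28 and 14.1 CPM, and the heme transporter *Slc48a1* at 35.4 and 361 CPM. Higher in PC5 were 3 of the 12: *Fth1* (15126 and 10176 CPM), *Ugdh* (86.1 and 54.8 CPM) and *Akr1b8* (30.5 and 26.4 CPM). Of the regulators of NRF2, 10 of 12 were counted, 2 above 1 and 3 below -1 (against 17.9% and 17.3% of all counted genes), with a median of -0.22. Those above 1 were the repressor *Bach1* (49.1 and 23.0 CPM) and the small MAF gene *Mafk* (20.1 and 10.04 CPM). *Bach2*, a repressor related to BACH1, was at 0.143 and 10.1 CPM, *Sqstm1*, the autophagy receptor p62 that binds KEAP1, at 110 and 822 CPM, and *Mafg*, another small MAF gene, at 43.8 and 112 CPM.

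Of the other thioredoxin and glutaredoxin genes, 15 of 17 were counted, 5 above 1 and 2 below -1 (against 17.9% and 17.3% of all counted genes), with a median of 0.44. *Glrx*, a glutaredoxin, had 79.9 CPM in PC5 against 15.3 in PC20, *Txnip*, which inhibits thioredoxin, had 46.1 and 10.1 CPM, and the sestrin *Sesn3* had 46.2 and 13.0 CPM. Of selenoprotein genes, 13 of 13 were counted, 2 above 1 and 1 below -1 (against 17.9% and 17.3% of all counted genes), with a median of 0.15. *Selenop*, the selenium carrier, was at 275 and 4.31 CPM, *Dio2*, which activates thyroid hormone, at 49.0 and 2.76 CPM, and the ER protein *Selenos* at 113 and 246 CPM.

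Of oxidant sources, 13 of 14 symbols were found and 7 were counted, 2 above 1 and 3 below -1 (against 17.9% and 17.3% of all counted genes), with a median of -0.16. *Ero1l*, the ER oxidase that makes hydrogen peroxide during disulfide formation, reached 144 CPM in PC5 and, in PC20, 2639 (log2 ratio -4.19). The NADPH oxidase subunits *Cyba* (129 and 28.9 CPM) and *Nox4* (16.5 and 4.40 CPM) were higher in PC5. *P4hb*, the ER disulfide isomerase, had 460 and 382 CPM.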

How the data were processed

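The deposited values are UMI counts of each gene in each barcode, which the authors made with Cell Ranger (5.0 per the labels, 5.0.1 per the file headers) on mm10, without normalization. Gene identifiers were matched to GENCODE M21 (31011 of 31053). Barcodes passed with over 1000 genes seen and a mitochondrial share of under 20%, and no doublet caller was run. Groups follow the passage in the labels. Intervals are exact Poisson (CPM), conditional binomial (ratios) and Clopper-Pearson (shares). PC5 and PC20 were set side by side without a test. A fold of 1 on the log2 scale and a mean of at least 5 CPM were used for counts. The computation was tested on simulated data. Genes are named if they passed the fold, were among the 10 highest members, were core enzymes, or were the 3 farthest of a list, the 5 most uneven or the 5 best pairs per library. The members and lists were chosen with earlier results of these data known. Alternatives were other cell filters, thinning to equal depth, other scalings, a pseudocount of 10 CPM and other minimums. Python 3.11.15, numpy 2.4.6, scipy 1.17.1 and pandas 2.3.3 were used. Cells of the study from adult and embryonic brain were not analysed here.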

Additional observations from a re-analysis of the deposited data

Results flagged for a closer look

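The barcodes left out by the cell filter, which no comparison uses, also held UMIs of the 55 genes, above the limit that a count of 0 allows: 5027 in PC5 and 1130 in PC20. These are 0.544% of the 924207 UMIs in the left-out PC5 barcodes and 0.614% of the 184103 in those of PC20. *Gpx7* had 14 UMIs in the left-out PC5 barcodes and 1 in those of PC20.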

How the results depend on the processing

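No paired analysis was possible because each passage has 1 library. Over 12 alternatives no count or median turned its direction. The count of genes above 1 was 4 and became 2 with a pseudocount of 10 CPM and 1 with a mean of at least 50 CPM, and lay between 4 and 6 otherwise. The count below -1 was 15 and lay between 14 and 16. The median of -0.83 was -0.84 with the stricter cell filter, -0.85 without the 10% of cells with most UMIs, -0.85 in cells with no *Mki67* or *Top2a* UMI, -0.79 in thinned cells, -0.82 with mitochondrial and ribosomal protein genes left out of the library size, -0.84 as a mean over cells, -0.85 after centring and -0.63 with the pseudocount. It was -0.81 for genes in at least 10% of cells, -0.79 with a mean of at least 1 CPM and -1.27 with at least 50 CPM. Single-gene ratios were read for the counted genes without *Gpx7*, which has no ratio, and for *Sod3*. Of these 37 ratios, 36 kept their sign under 9 alternatives. The exception was *Prdx5*, at -0.09 where *Mki67* and *Top2a* were at 0. *Gstk1* (0.99), *Gstm4* (0.52) and *Sod3* (0.59) fell under 1 with the pseudocount, *Gsta4* became -4.07 and *Nqo1* -2.52 with it, and *Txnrd2* passed it at -1.10 where *Mki67* and *Top2a* were at 0. The depth sets only the upper limit stated for *Gpx7* in PC20, and counting intervals say nothing of the spread between cultures.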
